A study of Mus musculus with 22 samples.

Results

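DNA replication genes are a set of 44 genes whose products copy the genome, and they were chosen by name, by the gene symbol in the deposited table. All 44 were found among the 55335 genes of the table. RNA-seq had been done on mouse embryos of B6D2F1 females mated with B6D2F1 males. The embryos were collected 43 to 44 h (2-cell embryos), 78 h (morulae) or 94 h (blastocysts) after hCG injection. Each library was made from 15 pooled embryos with an oligo-dT primed, Smart-seq2 type protocol. H2A.Z KD embryos had received about 10 pl of a mix of siRNA pairs against mouse H2A.Z at 20 μM, injected into pronuclear zygotes, and how the control embryos of these libraries were treated is not given in the sources used here. Every control group held 4 libraries, while KD embryos gave 3 libraries at the 2-cell and at the morula stage and 4 at the blastocyst stage.

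Before a chromosome can be copied, the origin recognition complex marks start sites, and CDC6 and CDT1 load the ring-shaped MCM helicase on them, a step called licensing that geminin blocks by holding CDT1. CDC45 and the GINS complex then turn the loaded helicase on, primase and the DNA polymerases make the new strands, the sliding clamp PCNA and its loader RFC keep the polymerases on DNA, RPA covers the bare strand, and FEN1 and ligase I join the pieces. Early mouse embryos divide with no increase in size, at first on RNA and protein that the oocyte supplied, and after genome activation on transcripts of their own. H2A.Z is a histone H2A variant found around many start sites of transcription, encoded by H2afz and H2afv.

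Levels are given as deposited FPKM, a measure of fragments corrected for transcript length and library size. They are values per library or mean ± SD, and in some places a mean or a range alone. A fold change is a log2 difference of FPKM + 1 after scaling between libraries, which understates the change of a gene with low FPKM. A gene was called lower or higher when limma gave it an adjusted p under 0.05 over all genes tested. A change of over 2-fold means an absolute log2 fold change above 1 as well. Whether the groups of a gene overlapped was read on deposited FPKM, without scaling, and the share of all genes without overlap was not counted.

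The genes that encode H2A.Z were read first. The siRNA sequences were not at hand, so whether they match H2afv is not known. H2afz was at 1244, 1236, 905 and 1178 FPKM in the control 2-cell libraries and at 415, 139 and 112 FPKM in the KD ones. The KD library of replicate 1 kept the most, and no KD library reached a control one. In morulae the controls held 1158, 1336, 1511 and 1421 FPKM of H2afz and the KD libraries 30.3, 25.7 and 29.0 FPKM. In blastocysts the controls held 2656, 2431, 1945 and 2055 FPKM and the KD libraries 64.2, 67.2, 53.2 and 57.6 FPKM. The log2 fold changes of H2afz were -2.53, -5.41 and -5.19 from 2-cell to blastocyst, with limma adjusted p of 0.544, 9.72e-08 and 3.63e-08. H2afv, the gene of the other H2A.Z isoform, was at 110 ± 8.96 (SD, n = 4) FPKM in control and 88.9 ± 7.56 (SD, n = 3) FPKM in KD 2-cell embryos. Its 3 KD morula libraries held 12.9, 11.01 and 9.90 FPKM against 97.3, 113, 100.0 and 92.5 FPKM in the controls. In blastocysts the 4 KD libraries held 19.9, 16.9, 10.6 and 13.9 FPKM against 49.9, 62.0, 54.5 and 63.5 FPKM. The log2 fold changes of H2afv were -0.23, -2.94 and -1.86. Both genes were low in every KD library of the later stages.

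The stage labels were checked against marker lists, as the sum of FPKM over each list. The 7 two-cell markers found in the table summed to 510 ± 126 (SD, n = 4) FPKM in control 2-cell embryos, 14.3 ± 8.65 (SD, n = 4) FPKM in morulae and 3.29 ± 1.54 (SD, n = 4) FPKM in blastocysts. The 7 trophectoderm markers summed to 11.003 ± 3.33 (SD, n = 4), 129 ± 15.6 (SD, n = 4) and 1195 ± 240 (SD, n = 4) FPKM over the same stages. The 7 oocyte markers, led by Oosp1 in 2-cell embryos and by Zp3 later, summed to 878, 7.40 and 2.51 FPKM on average. The 8 cumulus cell markers, led by Tnfaip6, summed to 1.74, 0.0159 and 0.0278 FPKM in the controls, so cells of the follicle were near 0. In KD libraries the two-cell list summed to 526, 15.4 and 24.1 FPKM on average and the trophectoderm list to 9.11, 98.8 and 678 FPKM. The sums thus set 2-cell libraries and blastocysts apart as labelled, and no list holds markers of morulae alone.

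Among themselves the 44 genes spanned a wide range. In control 2-cell embryos their mean FPKM ran from 0.286 for Pold1 to 746 for Gmnn with a median of 13.8, in control morulae from 2.04 for Pold1 to 330 for Rrm2 with a median of 27.4, and in control blastocysts from 1.58 for Pold1 to 333 for Rrm2 with a median of 22.9. Of the 44, 8 peaked at the 2-cell stage by control mean, 15 as morulae and 21 as blastocysts. Genes for subunits of the same complex were not at equal FPKM, and protein was not measured here. Within the MCM ring, control means differed by 4.22-fold between Mcm6 and Mcm5 in 2-cell embryos and by 4.42-fold between Mcm6 and Mcm2 in blastocysts. Within the 6 ORC genes the gap was 79.3-fold in 2-cell embryos, between Orc6 and Orc3, and 16.0-fold in blastocysts, between Orc6 and Orc1. In GINS, Gins4 was 6.09-fold above Gins2 in 2-cell embryos and 44.1-fold above it in morulae.

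Normal development was followed in the control libraries. From 2-cell embryos to morulae, 23 of the 44 genes rose (52.3%, against 43% of the 13655 genes tested) and 7 fell (15.9%, against 40.3%). By over 2-fold, 17 rose (32.3% of all genes did) and 4 fell (30.3% of all genes did). The median log2 fold change was 0.66 over the members and 0.10 over all genes. Pold1 passed the filter on low FPKM in morulae alone, so it had to differ. From morulae to blastocysts, a comparison that uses the same control morulae, 10 members rose (22.7%, against 27.6% of 11849 genes) and 8 fell (18.2%, against 28.8%). Of these, 4 rose by over 2-fold (13.4% of all genes) and 2 fell by over 2-fold (12.9% of all genes). Over the alternatives 2 to 4 members rose and 2 to 3 fell by over 2-fold. The medians in this comparison were -0.07 for the members and -0.03 for all genes. Over the alternatives they lay between -0.16 and 0.02 for the members and between -0.04 and 0.04 for all genes.

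The origin genes split in the first interval. Orc1, the largest ORC subunit, fell from 23.4 ± 6.40 (SD, n = 4) to 9.78 ± 1.39 (SD, n = 4) FPKM, with a log2 fold change of -1.16 and a limma adjusted p of 8.70e-05. Orc2, a core subunit, fell by 0.49 on the log2 scale with a limma adjusted p of 0.00973, and that call was lost in 1 of 13 alternatives, at a limma adjusted p of 0.0942. Orc6, the most abundant ORC gene, fell from 205 ± 13.6 (SD, n = 4) to 127 ± 9.37 (SD, n = 4) FPKM, with a log2 fold change of -0.69 and a limma adjusted p of 0.00169. Orc3, which binds Orc2 in the core of the complex, went the other way, from 2.58 ± 0.603 (SD, n = 4) to 22.4 ± 4.40 (SD, n = 4) FPKM, a log2 fold change of 2.703 at a limma adjusted p of 8.79e-08. It rose again to 38.8 ± 2.09 (SD, n = 4) FPKM in blastocysts, at a limma adjusted p of 0.00466.

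The licensing genes also moved in opposite directions. Geminin RNA was the most abundant of the set in 2-cell embryos, with Gmnn at 766, 1063, 539 and 616 FPKM in the controls. It was at 193, 285, 297 and 281 FPKM in control morulae, with a log2 fold change of -1.47 and a limma adjusted p of 0.000295. Cdc6, the helicase loader, rose from 8.68 ± 3.18 (SD, n = 4) to 30.7 ± 5.18 (SD, n = 4) FPKM and then fell to 16.8 ± 4.01 (SD, n = 4) FPKM in blastocysts, both past the threshold. Its partner Cdt1 was at 16.7 ± 1.84, 27.7 ± 8.60 and 11.6 ± 2.18 FPKM (SD, n = 4 each) over the stages. The fall of Cdt1 into blastocysts had a log2 fold change of -1.25 and a limma adjusted p of 8.51e-05.

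Of the 6 MCM genes, Mcm5 and Mcm7 rose from 2-cell embryos to morulae (33.3%, against 43% of all genes). Their log2 fold changes were 0.98 and 1.20, with limma adjusted p of 0.000583 and 0.000344. The other 4 did not pass the test. None of the 6 was called from morulae to blastocysts, where limma gave a smallest adjusted p of 0.0745. Cdc45, which with GINS activates the helicase, fell from 79.4 ± 26.9 (SD, n = 4) to 29.1 ± 9.23 (SD, n = 4) and 18.6 ± 4.36 (SD, n = 4) FPKM. The call of its second fall had a limma adjusted p of 0.0291 and was lost in 7 of 12 alternatives, the omission of control morula replicates 1, 2 or 8 or of control blastocyst replicates 1 or 4 among them. Gins1 rose in morulae, with a log2 fold change of 2.33. Gins2 fell and then rose. It was at 13.0, 11.4, 10.3 and 8.30 FPKM among control 2-cell libraries, at 2.46, 2.14, 2.68 and 2.18 FPKM in control morulae and at 13.7, 16.9, 11.4 and 10.2 FPKM in control blastocysts. Its fall and its return both passed the test, with log2 fold changes of -1.80 and 1.97 and limma adjusted p of 2.04e-06 and 4.27e-06.

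On the log2 scale of scaled FPKM + 1, the largest rise into morulae was that of Rfc4, a small subunit of the clamp loader. It went from 7.30 ± 2.43 (SD, n = 4) to 123 ± 10.4 (SD, n = 4) FPKM between 2-cell embryos and morulae, with a log2 fold change of 3.93 and a limma adjusted p of 1.08e-08. Pcna, the clamp itself, was at 112 ± 4.57 (SD, n = 4) and 120 ± 9.13 (SD, n = 4) FPKM at those stages and rose to 233 ± 24.9 (SD, n = 4) FPKM in blastocysts at a limma adjusted p of 0.00107. Pole2, the second subunit of the leading-strand polymerase, rose from 7.47 ± 0.556 (SD, n = 4) to 28.0 ± 3.43 (SD, n = 4) FPKM. Pola1, the catalytic subunit of the priming polymerase, fell from 7.74 ± 1.80 (SD, n = 4) FPKM in morulae to 4.86 ± 0.746 (SD, n = 4) FPKM in blastocysts. Rpa1, the large subunit of RPA, rose at each step, from 1.82 ± 0.833 (SD, n = 4) to 4.88 ± 0.939 (SD, n = 4) and 12.0 ± 3.78 (SD, n = 4) FPKM. Rpa2, the middle subunit, was called higher in morulae with a log2 fold change of 0.69 and a limma adjusted p of 0.0124, a call that was lost without replicate 1 of the control 2-cell libraries. The smallest subunit gene, Rpa3, rose from 56.6 ± 6.49 (SD, n = 4) FPKM in morulae to 131 ± 40.9 (SD, n = 4) FPKM in blastocysts. Lig1, the ligase that seals Okazaki fragments, rose from 1.07 ± 0.0928 (SD, n = 4) to 3.64 ± 0.725 (SD, n = 4) and 10.9 ± 1.82 (SD, n = 4) FPKM. Fen1, the flap nuclease, rose from 4.32 ± 1.89 (SD, n = 4) to 10.8 ± 0.791 (SD, n = 4) FPKM.

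All 3 genes of dNTP supply rose from 2-cell embryos to morulae, as 43% of all genes tested did. Rrm1 and Rrm2, the large and the small subunit of ribonucleotide reductase, had log2 fold changes of 2.04 and 2.14. Tyms, thymidylate synthase, had a log2 fold change of 3.77 at a limma adjusted p of 1.71e-06. Its control morula libraries held 107, 77.8, 274 and 78.2 FPKM, so replicate 7 stood above the other 3. None of the 3 was called from morulae to blastocysts, where limma gave a smallest adjusted p of 0.0715.

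The first KD comparison asked whether the set differed in 2-cell embryos. Of the 44 genes, 43 passed the filter, and limma called 0 of them lower and 0 higher (0% of the 12160 genes tested in either direction). At an unadjusted p under 0.05 there were 2 of 43 members and 701 of 12160 genes. H2afz itself, with a log2 fold change of -2.53, was not called at this stage, at a limma adjusted p of 0.544. The absence of calls therefore does not show that the members were unchanged. The median log2 fold change of the members was -0.14 against 0.00 for all genes. Of the 43 values 33 were below 0, and of the 12160 genes 5994 were. Pold1, the catalytic subunit of polymerase delta, did not pass the filter, with 0.349, 0.358, 0.0569 and 0.378 FPKM in the controls and 0.0266, 0 and 0.146 FPKM in the KD libraries.

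In morulae all 44 genes were tested. KD embryos had 9 members called lower (20.5%, against 9.05% of the 10989 genes tested) and 0 called higher (4.22% of all genes were), and 16 members (36.4%, against 30.5% of all genes) had an unadjusted p under 0.05. No member changed by over 2-fold, as 2.59% of all genes did on the lower side. The median log2 fold change was -0.23 for the members and 0.02 for all genes, and that of the members lay between -0.35 and -0.14 over the alternatives. The 9 were Orc3, Mcm6, Prim1, Pold2, Pole2, Rfc4, Rpa1, Rpa3 and Rrm1, with at least 1 from every role except licensing, helicase activation and the flap and ligase genes. In pooled embryos, fewer cells of a type and less RNA per cell cannot be told apart.

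These morula calls lay close to the threshold, and the count depended on single libraries. It was 5, 3 or 1 without replicate 2, 7 or 8 of the controls, and 1 or 0 without replicate 1 or 2 of the KD libraries. Over all genes, 412 to 1186 were lower without 1 library, against 995 with every library. Over the alternatives 0 to 14 members were lower and 0 to 2 higher. The lower count was 0 with no filter on low FPKM and 14 on FPKM as deposited, without scaling between libraries. On that scale 1553 genes were lower and 281 higher, against 995 and 464 after scaling.

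Pole2 had the smallest adjusted p in morulae. It was at 25.3, 32.6, 25.5 and 28.6 FPKM in the controls and at 14.5, 13.7 and 14.02 FPKM in the KD libraries. The groups did not overlap, the log2 fold change was -0.82 and the limma adjusted p was 0.0114. The call was lost without KD replicate 2, at a limma adjusted p of 0.0513, and with no filter on low FPKM, at 0.0522. Rpa1 was at 4.26, 3.90, 5.55 and 5.80 FPKM in the controls and at 2.15, 1.57 and 2.39 FPKM in the KD libraries. Every KD library lay below every control, with a log2 fold change of -0.86 at a limma adjusted p of 0.0211. Its call was lost in 6 of 14 alternatives, with a limma adjusted p of up to 0.0941.

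Rpa3 was at 53.2, 50.1, 65.0 and 58.0 FPKM in control and 25.4, 35.1 and 33.7 FPKM in KD morulae. Orc3 was at 22.7, 21.7, 17.3 and 28.0 FPKM in control and 11.8, 13.3 and 10.3 FPKM in KD morulae. Prim1, the catalytic subunit of primase, was at 31.0, 34.6, 44.6 and 49.2 FPKM in control and 20.4, 25.2 and 17.7 FPKM in KD morulae. The groups of these 3 genes did not overlap, with log2 fold changes of -0.71, -0.74 and -0.75 and limma adjusted p of 0.0311, 0.0288 and 0.0498. In that order, the calls were lost in 7, 7 and 10 of 14 alternatives, with limma adjusted p of up to 0.127, 0.113 and 0.328. Over them the log2 fold change of Prim1 lay between -0.92 and -0.35. Mcm6, the most abundant MCM gene at this stage, had 44.8 ± 4.26 (SD, n = 4) FPKM in control and 27.7 ± 3.34 (SD, n = 3) FPKM in KD morulae. Rfc4 had 123 ± 10.4 (SD, n = 4) and 71.8 ± 13.4 (SD, n = 3) FPKM. For Rrm1 the means were 37.3 ± 5.62 (SD, n = 4) and 20.6 ± 2.28 (SD, n = 3) FPKM. Their log2 fold changes were -0.55, -0.66 and -0.70, with limma adjusted p of 0.0373, 0.0388 and 0.0334. In that order, the calls were lost in 7, 7 and 6 of 14 alternatives, with limma adjusted p of up to 0.157, 0.170 and 0.134.

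Other members that the text follows did not pass in morulae. Fen1 was at 10.8 ± 0.791 (SD, n = 4) FPKM in control and 6.14 ± 1.94 (SD, n = 3) FPKM in KD embryos, with a limma adjusted p of 0.0533. Pcna was at 120 ± 9.13 (SD, n = 4) and 92.6 ± 7.02 (SD, n = 3) FPKM. Gmnn was at 264 ± 47.7 (SD, n = 4) and 316 ± 19.0 (SD, n = 3) FPKM. Rrm2 was at 330 ± 54.8 (SD, n = 4) and 306 ± 47.2 (SD, n = 3) FPKM. The groups did not overlap for Fen1, Pcna and Gmnn, and they overlapped for Rrm2. Neither did they overlap for Gins4, with a log2 fold change of -0.04 at a limma adjusted p of 0.876. Non-overlap alone thus marks no change here.

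In blastocysts the calls were more numerous and went both ways. Of the 44 members, 14 were lower in KD embryos (31.8%, against 19.8% of the 11828 genes tested) and 3 were higher (6.82%, against 16.7%). At an unadjusted p under 0.05 there were 22 members (50%, against 46% of all genes). By over 2-fold, 4 were lower (7.76% of all genes were) and 0 higher (6.1% of all genes were). The median log2 fold change was -0.27 for the members and 0.00 for all genes, and that of the members lay between -0.33 and -0.15 over the alternatives. Over the alternatives 10 to 17 members were lower and 2 to 4 higher, and 4 to 7 were lower by over 2-fold. Of the members called lower, 6 were called in morulae too, Orc3, Prim1, Pole2, Rpa1, Rpa3 and Rrm1, which was 66.7% of the 9 and 42.9% of the 14. Over all genes, 585 were lower in both, 58.8% of the 995 and 25% of the 2344. No library is shared by these stages.

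**Figure D1:**
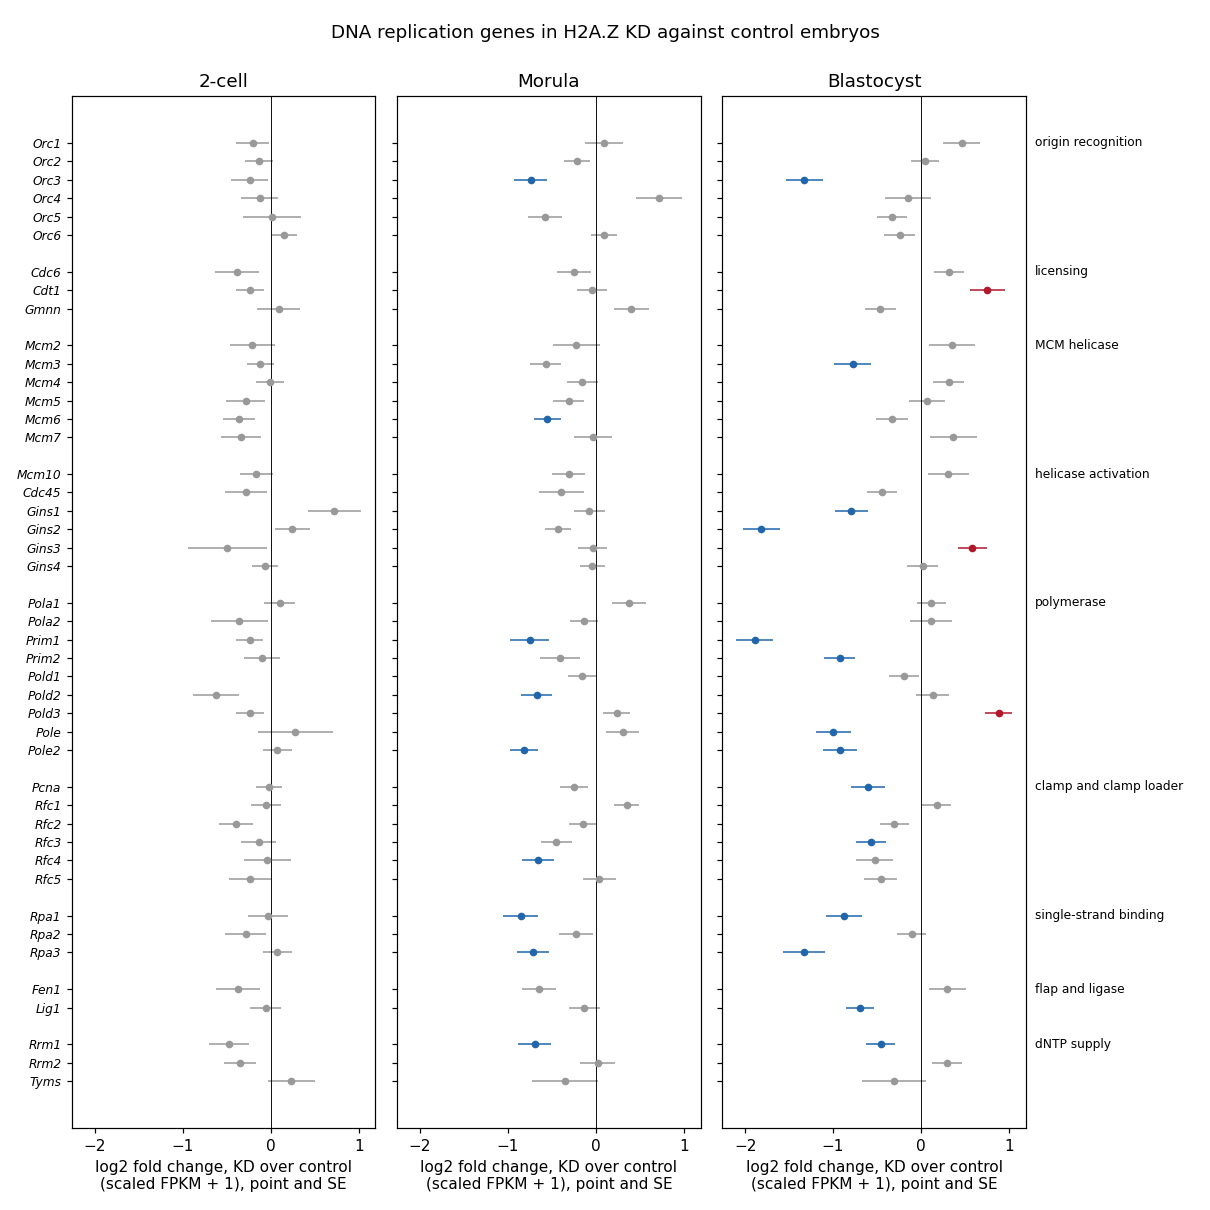
Log2 fold change of KD over control for each member (points, with the SE of the limma fit), on the scale of scaled FPKM + 1, ordered by role, in 2-cell embryos, morulae and blastocysts. Blue marks members called lower (0, 9 and 14 over the stages), red those called higher (0, 0 and 3), and grey those not called. Pold1 was not tested in 2-cell embryos.

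Of the 9 genes of primase and the DNA polymerases, 4 were lower (44.4%, against 19.8% of all genes) and 1 was higher (11.1%, against 16.7%). Prim1 was at 82.2, 63.6, 52.8 and 52.5 FPKM in control blastocysts and at 16.4, 17.3, 14.6 and 15.0 FPKM in KD blastocysts. All 4 KD libraries were far below all controls, and just below the lowest of the 3 KD morula libraries. Its log2 fold change was -1.89 with an SE of 0.21 and a limma adjusted p of 5.81e-05, and it lay between -2.004 and -1.71 over the 15 alternatives. Prim2, the regulatory subunit of primase, was among the 14 too. The genes of the polymerase bound to primase were not: Pola1 was at 4.86 ± 0.746 (SD, n = 4) FPKM in control and 5.32 ± 0.699 (SD, n = 4) FPKM in KD blastocysts.

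Pole encodes the catalytic subunit of the leading-strand polymerase. It was at 10.5, 11.6, 7.69 and 7.79 FPKM in control and at 4.59, 3.24, 4.58 and 4.19 FPKM in KD blastocysts, with no overlap. It had a log2 fold change of -0.999 and a limma adjusted p of 0.00223. Pole2 was at 34.3, 26.9, 30.9 and 27.8 FPKM in control and at 17.5, 15.3, 12.9 and 15.4 FPKM in KD blastocysts, again with no overlap, and its log2 fold change was -0.92 at a limma adjusted p of 0.00267. Genes of polymerase delta went apart. Pold4, outside the set, was lower, as given below. Pold1 was at 1.58 ± 0.510 (SD, n = 4) and 1.24 ± 0.283 (SD, n = 4) FPKM and was not called. Pold2 was not called either, with a log2 fold change of 0.13 and a limma adjusted p of 0.625. Pold3, an accessory subunit, was higher. Pold3 was at 17.0, 23.4, 26.4 and 25.2 FPKM in control and 38.8, 36.9, 47.7 and 47.2 FPKM in KD blastocysts. Its log2 fold change was 0.88 at a limma adjusted p of 0.000968, and its control morulae stood at 63.5 ± 4.40 (SD, n = 4) FPKM. Pold3 is named after its values were seen, and so are Prim2, Pold2, Rfc3, Gins3, Gins4 and Orc6.

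The genes that activate the helicase also went apart. Gins2 was at 3.07, 3.00, 2.30 and 3.33 FPKM in KD blastocysts, against 13.7, 16.9, 11.4 and 10.2 FPKM in the controls. The KD libraries were thus near the level of control morulae, 2.36 ± 0.253 (SD, n = 4) FPKM. Not every lower member was near that of its control morulae. In KD blastocysts Prim1, at 15.8 FPKM on average, lay below its control morulae at 39.8 FPKM. Pcna, at 153 FPKM, lay above its own at 120 FPKM. The log2 fold change of Gins2 was -1.82 with an SE of 0.21 and a limma adjusted p of 6.66e-05. Of the exon bases of Gins2, 67.3% overlap exons of Gse1 on the opposite strand, and this library type does not mark strand, so the share of each gene is uncertain. Gse1 was listed at 0.104 FPKM on average over all libraries. Gins1 was at 89.9, 78.2, 66.9 and 64.9 FPKM in control and 46.1, 42.6, 41.9 and 38.9 FPKM in KD blastocysts, with a log2 fold change of -0.79 and a limma adjusted p of 0.00561. Gins3 was higher, at 16.4 ± 2.21 (SD, n = 4) against 10.8 ± 2.47 (SD, n = 4) FPKM. Cdc45 was at 18.6 ± 4.36 (SD, n = 4) and 13.1 ± 1.62 (SD, n = 4) FPKM and was not called. Within the GINS complex the gap between the highest and the lowest gene was 7.03-fold in control blastocysts, Gins4 over Gins3, and 26.4-fold in KD blastocysts, Gins4 over Gins2.

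At origins, Orc3 was the gene called. It was at 37.9, 41.6, 39.1 and 36.7 FPKM in control and at 11.6, 22.2, 12.1 and 15.2 FPKM in KD blastocysts. KD replicate 4 was the highest of its group, and all 4 were below the controls. The log2 fold change was -1.33 at a limma adjusted p of 0.000635. Orc1 was at 7.77 ± 2.88 (SD, n = 4) and 10.6 ± 1.92 (SD, n = 4) FPKM, and Orc2 was at 22.1 ± 4.57 (SD, n = 4) and 22.5 ± 2.26 (SD, n = 4) FPKM.

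Among the licensing genes Cdt1 was higher. Its control blastocysts held 9.01, 11.1, 14.3 and 11.8 FPKM and its KD blastocysts 17.6, 14.4, 32.8 and 18.4 FPKM. The lowest KD library lay just above the highest control, and replicate 5 was the highest of the KD group. The log2 fold change was 0.75 at a limma adjusted p of 0.0119. Gmnn, its inhibitor, was at 322, 308, 274 and 292 FPKM in control and 207, 256, 189 and 214 FPKM in KD blastocysts and had a log2 fold change of -0.46 that was not called. Cdc6 was at 16.8 ± 4.01 (SD, n = 4) and 20.8 ± 3.35 (SD, n = 4) FPKM.

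Of the 6 MCM genes, Mcm3 alone was called in blastocysts (16.7% lower, against 19.8% of all genes). It was at 12.7, 24.2, 28.7 and 17.2 FPKM in control and at 12.5, 9.75, 12.5 and 9.79 FPKM in KD blastocysts, with a log2 fold change of -0.78 and a limma adjusted p of 0.0121. The lowest control, replicate 1, lay just above the highest KD library. The call was lost with no filter on low FPKM, at a limma adjusted p of 0.0519. Mcm2, Mcm4, Mcm5 and Mcm7 had log2 fold changes between 0.06 and 0.37 and Mcm6 of -0.33, none of them called. Libraries of a group differed along with each other over these genes. Control replicate 1 was the lowest of its group for all 6 MCM genes and replicate 5 the highest for all 6, with sums of 97.3 and 208 FPKM. KD replicate 5 was the highest of its group for all 6, with a sum of 202 FPKM against 125 to 138 FPKM in the other 3.

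Of the 6 genes of the clamp and its loader 2 were lower (33.3%), and of the 3 RPA genes 2 (66.7%), against 19.8% of all genes. Pcna was at 266, 234, 206 and 225 FPKM in control and 154, 163, 124 and 169 FPKM in KD blastocysts, with a log2 fold change of -0.60 and a limma adjusted p of 0.0275. The groups did not overlap, but the call was lost without control replicate 1 or 4 or KD replicate 5 and with no filter, at limma adjusted p up to 0.0880. Rfc4 was at 164 ± 8.26 (SD, n = 4) and 115 ± 25.1 (SD, n = 4) FPKM and was not called. Rpa3 was at 190, 126, 95.0 and 115 FPKM in control and 44.9, 55.7, 45.9 and 52.5 FPKM in KD blastocysts. Control replicate 1 was the highest, and no KD library reached a control. The log2 fold change was -1.33 with a limma adjusted p of 0.00122. Rpa1 was at 8.15, 10.9, 17.2 and 11.8 FPKM in control and 4.15, 6.46, 7.88 and 5.50 FPKM in KD blastocysts, with a log2 fold change of -0.87 and a limma adjusted p of 0.00596. Rpa2, which sits between them in the trimer, was at 96.4 ± 11.4 (SD, n = 4) and 88.9 ± 10.3 (SD, n = 4) FPKM.

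Lig1 was at 8.36, 12.3, 10.9 and 12.1 FPKM in control and at 5.36, 6.57, 7.19 and 6.09 FPKM in KD blastocysts. The groups did not overlap, with a log2 fold change of -0.69 and a limma adjusted p of 0.00544. Fen1 was at 8.78 ± 2.89 (SD, n = 4) and 10.7 ± 2.15 (SD, n = 4) FPKM, and 78.8% of its exon bases overlap the antisense gene Gm10143, so its reads are uncertain. Rrm1 was at 54.5 ± 13.5 (SD, n = 4) and 38.4 ± 4.47 (SD, n = 4) FPKM. The log2 fold change of Rrm1 was -0.46 at a limma adjusted p of 0.0480, and its call was lost in 10 of 15 alternatives, with limma adjusted p up to 0.116, among them the omission of control replicate 4, 5 or 6 or of any of the 4 KD libraries. Rrm2 was at 333 ± 78.6 (SD, n = 4) and 398 ± 23.3 (SD, n = 4) FPKM. Tyms was at 139, 54.8, 53.6 and 39.3 FPKM in control and 53.9, 47.1, 38.6 and 67.8 FPKM in KD blastocysts. Control replicate 1 was the highest, and the groups overlapped.

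**Figure D2:**
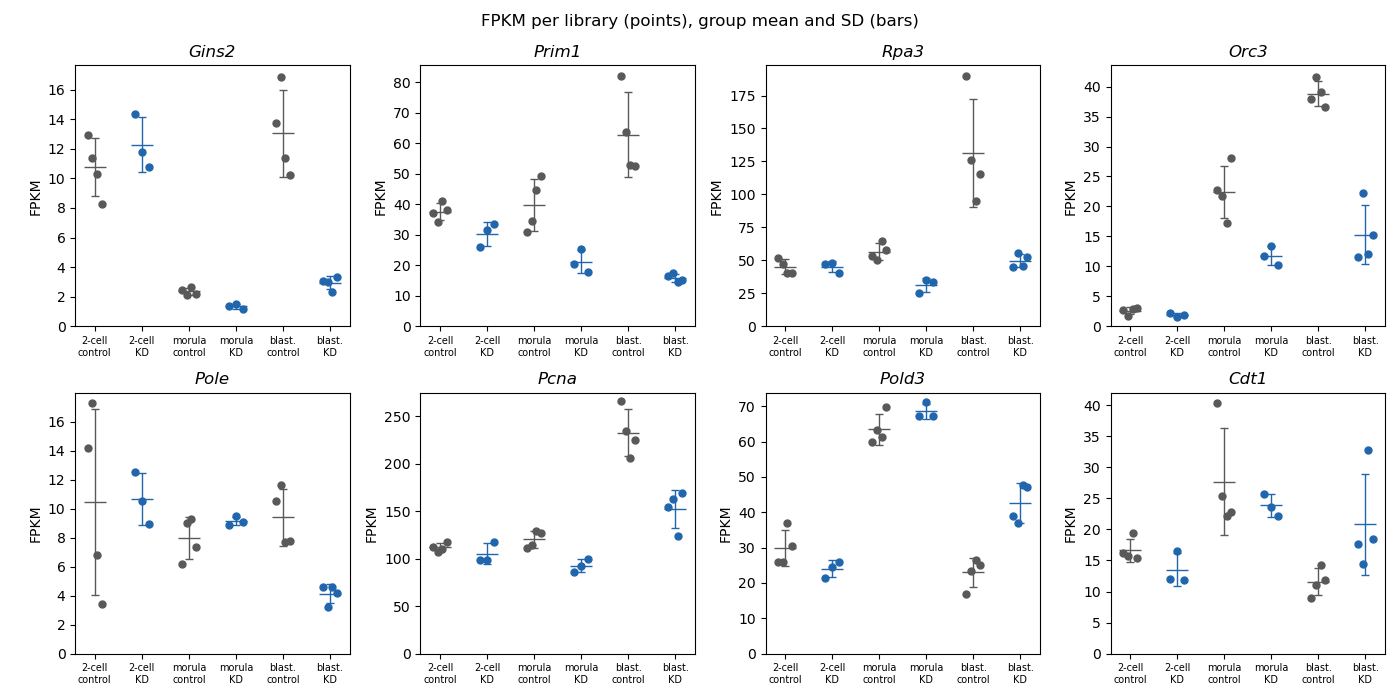
FPKM as deposited of 8 members in every library (points; grey control, blue KD), with the group mean and SD (bars), on linear axes that start at 0. Gins2 fell to 2.36 FPKM in control morulae and was at 13.1 FPKM in control but 2.93 FPKM in KD blastocysts, while Pold3 and Cdt1 were higher in KD blastocysts.

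Whether the KD effect differed between morulae and blastocysts was tested as an interaction over the 15 libraries of both stages. It was more negative in blastocysts for 4 of 44 members (9.09%, against 6.3% of 12727 genes) and more positive for 0 (5.43% of all genes were). Over the alternatives 2 to 5 members were more negative and 0 to 4 more positive. Of all genes, 545 to 894 were more negative and 399 to 894 more positive over the same alternatives. At an unadjusted p under 0.05 there were 12 members (27.3%, the same share as of all genes). The medians were -0.01 for both the members and all genes. Over the alternatives they lay between -0.09 and 0.12 for the members and between -0.02 and 0.11 for all genes. The 4 were Gins2, Pole, Prim1 and Gmnn, with interactions of -1.40, -1.33, -1.17 and -0.90 on the log2 scale and limma adjusted p of 0.00221, 0.00534, 0.0250 and 0.0403. Prim1 lost its call without KD morula replicate 2 and with no filter, at a limma adjusted p of up to 0.0918. Gmnn lost its call in 11 of 20 alternatives, at a limma adjusted p of up to 0.117. Its libraries at issue were control morula replicate 1, KD morula replicates 1, 2 and 6, control blastocyst replicates 1, 4 and 6, and KD blastocyst replicates 1, 5 and 6. For the other 40 members a call in a single stage does not show that the stages differ.

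Gene lists around the set were read in the same way, against 9.05% lower and 4.22% higher of all genes in morulae, and 19.8% and 16.7% in blastocysts. Of 33 other initiation and fork genes, 28 were tested in morulae, where 4 were lower (14.3%) and 1 higher (3.57%), and 30 in blastocysts, where 6 were lower (20%) and 2 higher (6.67%). Lrwd1, which binds ORC, was at 3.71 ± 0.920 (SD, n = 4) FPKM in control and 1.14 ± 0.439 (SD, n = 3) FPKM in KD morulae, a log2 fold change of -1.05. Pold4, the smallest subunit of polymerase delta, was at 8.44 ± 0.898 (SD, n = 4) and 3.40 ± 0.664 (SD, n = 4) FPKM in blastocysts, a log2 fold change of -1.11. Rnaseh2c, of the enzyme that removes ribonucleotides from DNA, was higher at 17.9 ± 5.21 (SD, n = 4) against 6.94 ± 2.40 (SD, n = 4) FPKM, a log2 fold change of 1.28. Of the 8 genes of chromatin assembly at the fork, 0 were called in morulae and 0 of the 7 tested in blastocysts, where limma gave a smallest adjusted p of 0.265.

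Of 22 other nucleotide supply genes, 3 of the 21 tested were lower (14.3%) and 0 higher in morulae, and 4 were lower (18.2%) and 3 higher (13.6%) in blastocysts. Shmt2, the mitochondrial serine hydroxymethyltransferase, was at 7.22 ± 1.23 (SD, n = 4) and 2.77 ± 0.629 (SD, n = 3) FPKM in control and KD morulae, a log2 fold change of -1.03. Impdh2, which commits purines to GMP, had a log2 fold change of 1.56 in blastocysts with a limma adjusted p of 2.01e-05. Cad, of the first steps of pyrimidine synthesis, was at 1.38 ± 0.265 (SD, n = 4) and 3.90 ± 1.06 (SD, n = 4) FPKM there, and Atic, of the last steps of purine synthesis, at 7.10 ± 3.83 (SD, n = 4) and 16.4 ± 5.69 (SD, n = 4) FPKM. The E2F and pocket protein genes, known regulators of S phase genes, had 0 of 7 tested called in morulae, and 1 lower (14.3%) and 3 higher (42.9%) of 7 in blastocysts. E2f4 was at 5.46 ± 2.28 (SD, n = 4) in control and 12.9 ± 5.26 (SD, n = 4) FPKM in KD blastocysts, a log2 fold change of 1.10 at a limma adjusted p of 0.01005, and the groups overlapped. In 2-cell embryos limma called 0 genes of these 4 lists, with a smallest adjusted p of 0.828.

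Markers of stage and lineage moved beside the members in blastocysts, and in morulae called markers lay in the inner cell mass list alone. In morulae limma called 0 of 4 two-cell, 0 of 5 trophectoderm, 0 of 1 primitive endoderm and 0 of 2 oocyte markers tested. Of the two-cell markers, 3 of the 4 tested were higher in KD blastocysts, and the list summed to 12.0, 26.2, 5.56 and 52.5 FPKM there against 4.17, 4.51, 1.09 and 3.38 FPKM in the controls. Its most abundant gene was Gm4340 in control and Tcstv3 in KD blastocysts, at 1.00 and 9.26 FPKM on average, and Zscan4c, Zscan4d and Usp17lc were under 1 FPKM in both. In control blastocysts 6 of the 7 genes averaged under 1 FPKM, so the filter favoured genes that were high in KD libraries. The highest of the two-cell sums in blastocysts, in KD replicate 6, was far under the 375 FPKM of the lowest control 2-cell library. The trophectoderm list had 2 lower and 1 higher of 7 and summed to 584, 741, 784 and 604 FPKM in KD against 999, 1477, 1312 and 990 FPKM in control blastocysts, led by Krt18. Elf5 of that list was at 0.105 ± 0.0640 (SD, n = 4) against 1.66 ± 0.635 (SD, n = 4) FPKM. It passed the filter on low FPKM in control libraries alone, so it had to differ. The inner cell mass list had 1 lower and 0 higher of 5, namely Tdgf1 at 15.2 ± 2.28 (SD, n = 4) against 80.6 ± 23.1 (SD, n = 4) FPKM, and its sums overlapped. In morulae that list had Nanog lower, at 20.7 ± 10.8 (SD, n = 3) against 106 ± 33.2 (SD, n = 4) FPKM, and 1 gene higher. Its morula sums were 101, 102 and 162 FPKM in KD against 202, 206, 242 and 257 FPKM in control libraries, with no overlap. Nanog made up most of that gap, as the sums averaged 122 FPKM in KD and 227 FPKM in control morulae. In blastocysts Nanog was at 161 FPKM in KD and 132 FPKM in control libraries on average and was not called. The primitive endoderm list had 0 of 2 called in blastocysts, where Gata6 led it, and the oocyte list 0 of 1. The part of these shifts in the values of the replication genes was not tested.

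Replication genes are known targets of E2F factors, and the promoters of the set were read for the E2F motif. RefSeq windows of 300 bases, from 250 bases before to 50 bases after the start, were matched for 36 of the 44 genes on GRCm38.p6. The motif was searched on both strands as TTTCCCGC, TTTCGCGC, TTTGCCGC or TTTGGCGC. It was found for 15 of the 36 members (41.7%), and for 2.6% of the 27025 genes with a window or 2.26% of the 32851 windows. Among members called lower in morulae or blastocysts it was found for 6 of the 13 with a window, among those called higher in blastocysts for 3 of 3, and among the rest for 6 of 20. The letters CCAAT were found for 23 of the 36 members (63.9%) and 41.1% of all genes, and TTTGAA for 5 members (13.9%) and 20.2% of all genes. A match is a string of letters in a window and shows no binding.

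The stretches that hold the motif are given for the 9 called members with a match, 1 stretch for each, in the direction of the gene, with the match at its centre in capitals. Mcm3, Mcm6 and Rfc3 have further matches, and that of Rfc3 also lies in the stretch shown, in small letters. Lower genes were Orc3 (chr4:34614965-34614994, minus strand), Mcm3 (chr1:20820275-20820304, minus strand), Mcm6 (chr1:128359734-128359763, minus strand), Pole2 (chr12:69228162-69228191, minus strand), Rfc3 (chr5:151651190-151651219, minus strand) and Lig1 (chr7:13278841-13278870, plus strand). Higher genes were Cdt1 (chr8:122568036-122568064, plus strand), Gins3 (chr8:95633507-95633536, plus strand) and Pold3 (chr7:100121467-100121496, minus strand).
Orc3: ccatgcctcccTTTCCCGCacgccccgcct
Mcm3: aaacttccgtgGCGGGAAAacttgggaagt
Mcm6: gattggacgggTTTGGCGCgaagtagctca
Pole2: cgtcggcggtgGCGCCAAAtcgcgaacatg
Rfc3: ctttcgcgctcGCGGGAAAactctactgtc
Lig1: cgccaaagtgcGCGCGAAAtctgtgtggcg
Cdt1: ggaactaccttTTTGGCGCcatggcgcaa
Gins3: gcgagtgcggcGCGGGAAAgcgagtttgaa
Pold3: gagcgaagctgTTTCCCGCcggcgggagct
The same motif thus stood in windows of genes that were lower and of genes that were higher in KD blastocysts.

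The positions of the leading genes are those of the annotation on GRCm38, where all 44 are protein-coding. Prim1 lies at chr10:128015168-128030037, Gins2 at chr8:120578633-120589304, Orc3 at chr4:34570796-34614944 and Rpa3 at chr6:8255936-8259173. Stretches of 75 bases shared with transcripts of other genes made up 73.7% of those of Fen1, 64.7% of Gins2, 28.8% of H2afz (27.9% with Tmcc1) and 25.1% of Orc2 (with Nif3l1). They made up 13.9% of Rfc2, 13.8% of Pcna (with Pcna-ps2), 13.2% of Mcm7 and 9.83% of Rfc5. For Rfc4 the share was 7.45% (with Eif4a2), for Rpa3 7.34% (with Gm6195) and for Pole2 6.1% (5.79% with Gm49384). Gm49384 was listed at 36.5 FPKM on average over all libraries, and Pole2 at 17.6 FPKM. Of Prim1 they made up 0.025%, and of Orc3 0.08%. For the genes with large shares, FPKM can hold reads of the other gene.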

How the data were processed

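RNA-seq of pooled mouse embryos was read from 1 table of 55335 genes by 22 libraries. The authors aligned reads to mm10 with STAR, quantified genes with StringTie 2.1.4 and deposited FPKM. The sources also name DESeq2 1.30.1 and featureCounts 1.6.2, by the authors. Counts were not used here. Groups and replicate numbers came from the sample titles, and 0 columns were without a sample. No pair of libraries held identical values.

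Libraries were scaled by 1 factor each, the median ratio to the geometric mean over genes above 0 in all libraries (0.893 to 1.17 within a stage). Genes with at least 1 FPKM in at least 3 libraries of the comparison were kept, and log2 of FPKM + 1 was tested with limma 3.58.1 in R 4.3.3 (lmFit, eBayes with a trend), with Benjamini-Hochberg adjustment over all genes tested. The design had foreseen this unit. The sample labels do not say that libraries came from separate matings. The paper says that experiments other than ULI-NChIP-seq were done 3 or more times, and not whether embryos of these libraries were separate sets, so p-values measure the spread between these libraries, which may be technical. Reference work used Python 3.11.15 with pandas 2.3.3 and numpy 2.4.6, and plots matplotlib 3.10.9. Of the table's identifiers, 54587 matched the annotation with the same version.

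Reads are unknown. FPKM times length of 13491 single-exon genes of at least 300 bases clustered at a step per library, and a constant over that step gave a relative depth of 14.8 to 28.7, but at most 15.9% of values lay within 0.01 of whole steps, so reads were not recovered.

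Members and lists were chosen with earlier results of these data known. Named were H2afz and H2afv, members past the threshold by over 2-fold in a KD comparison, the 5 largest called changes per KD comparison, a fixed set of core genes, and up to 4 genes per list. Alternatives were another pseudocount, no filter, no scaling, each library left out, the replicate number as a block, limma without a trend, the range of replicate numbers as a covariate and all libraries in 1 fit. The fits were also run on simulated data, but no outcome of that is given here.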

Additional observations from a re-analysis of the deposited data

Results flagged for a closer look

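The KD effect differed between morulae and blastocysts for 4 members in the limma interaction. Gins2 had an interaction of -1.40, Pole of -1.33, Prim1 of -1.17 and Gmnn of -0.90 on the log2 scale. H2afv, which encodes an H2A.Z isoform, had an interaction of 1.04, a smaller drop in blastocysts. That call was lost in 3 of 20 alternatives (no filter, the replicate block, and without KD morula replicate 6), at a limma adjusted p of up to 0.0771.

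On the scale of log2(FPKM + 1), a library stood apart from the other 3 of its group in 5 of 128 combinations of a named gene and a group of 4, by the gap to the nearest library over the range (Dixon's ratio, above its critical value), and chance gives about 1 in 20. On FPKM itself 8 passed, these 5 and Gins1 in control 2-cell replicate 2 (23.1 FPKM), Tyms in control morula replicate 7 (273.5 FPKM) and Tyms in control blastocyst replicate 1 (138.6 FPKM). Gmnn was at 193.3 FPKM in replicate 1 of control morulae and at 281 to 297 FPKM in the others. Mcm4 was at 21.95 FPKM in replicate 2 of control morulae against 28.41 to 29.71 FPKM. Mcm5 was at 33.72 FPKM in replicate 5 of KD blastocysts against 19.6 to 20.22 FPKM. Pold1 was at 0.05688 FPKM in replicate 4 of control 2-cell embryos against 0.3493 to 0.3779 FPKM, and Tyms at 12.42 FPKM in replicate 2 of the same group against 6.217 to 6.352 FPKM.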

How the results depend on the processing

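No named gene that was called changed direction under the alternatives run. In 2-cell embryos 0 members were called under each of them. In morulae, 1 member was lower by over 2-fold with a pseudocount of 0.1. There 0 members were lower with no filter, where more genes share the adjustment, and 14 on FPKM as deposited, and 1 was higher when the replicate number range entered as a covariate. For the interaction, 2 members were more negative with no filter. On FPKM as deposited 4 were more positive, 1 of them by over 2-fold, and 1 was more positive with limma without a trend. Where not stated, the cause was not tested.

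Without 1 library, 0 to 11 members were lower and 0 to 1 higher in morulae. In blastocysts 11 to 14 were lower, 2 to 4 higher and 4 to 7 lower by over 2-fold. In control development 7 to 7 fell and 21 to 25 rose into morulae, 4 to 5 and 16 to 18 by over 2-fold, and 7 to 12 fell and 9 to 11 rose into blastocysts, 2 to 3 and 2 to 4 by over 2-fold. Of the interactions, 2 to 5 were more negative and 0 to 4 more positive, 2 to 4 and 0 to 1 by over 2-fold.

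Same-numbered control and KD libraries did not always deviate together: correlations over genes were 0.0147 to 0.214 for 3 pairs of 2-cell libraries, 0.0943 to 0.181 for 2 pairs of morulae and -0.11 to 0.353 for 4 pairs of blastocysts, so the number was not taken as a pairing. Pairs of the same number correlated more on average than pairs of different numbers (0.146 against -0.0487, 0.138 against -0.0282 and 0.0826 against -0.0288 by stage). In morulae, control libraries 1 and 2 correlated with KD libraries 1 and 2 at 0.0943 to 0.181 and with KD library 6 at -0.278 and -0.207, while controls 7 and 8 correlated with KD library 6 at 0.185 and 0.346. With the range of numbers as a covariate, 12 members were lower there. Not every library correlated best with its own number. With the number as a replicate block, 4 members were lower and 2 higher in morulae, and of the interactions 1 was more positive, by over 2-fold, and 5 were more negative by over 2-fold. Prim1 in morulae had a log2 fold change of -0.35 in that fit, at a limma adjusted p of 0.328, and Orc2 from 2-cell embryos to morulae had no call. The block could not be fitted from morulae to blastocysts.

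Over all genes, no filter gave 283 lower and 129 higher in morulae, 8971 falling into morulae and 399 more positive interactions (995, 464, 5506 and 691 in the report). FPKM as deposited gave 1553 and 281 in morulae, and moved the median of all genes there from 0.02 to -0.09. For the interaction that scale moved it from -0.01 to 0.11. The range of replicate numbers gave 777 higher in morulae, and all 22 libraries in 1 fit gave 20 lower and 26 higher in 2-cell embryos. Read depth is unknown, and low FPKM limits members such as Pold1, Lig1 and Rpa1, at means of 0.286, 1.07 and 1.82 FPKM in control 2-cell embryos.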
